A study of Mus musculus with 13 samples.

Results

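The circadian clock genes described here were the 10 genes Per1, Per2, Per3, Dbp, Tef, Hlf, Nr1d1, Nr1d2, Arntl and Clock, taken by gene symbol. All 10 were rows of the kidney table, out of 28183 listed genes, and all 10 passed the filter on low values that left 14637 genes for testing. In the cell table, which lists 2016 genes that the authors had already selected as changed, 4 of the 10 were present.

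The kidneys came from C57BL/6 mice in 4 groups of 2 libraries, and RNA of the whole kidney was sequenced. At postnatal day 10, Pkd1 knockout mice (KSP/Cre+;Pkd1f/f) stood against Cre-negative Pkd1 controls (KSP/Cre-;Pkd1f/f). At postnatal day 20, Pkd2 knockout mice (Pkhd1/Cre+;Pkd2f/f) stood against Cre-negative Pkd2 controls (Pkhd1/Cre-;Pkd2f/f). KSP/Cre is active in the epithelium of the tubules and Pkhd1/Cre mainly in collecting duct, so other kidney cells kept their floxed alleles and controls carried 2 floxed alleles as well. The Pkd2 knockout titles carry a wild-type tag, whereas the genotype and description fields say knockout, and the latter were followed. Age went with the floxed gene and the Cre line, so these cannot be told apart between the models. The labels give no time of day of collection, so no level could be placed on the daily cycle, and do not say that libraries came from separate animals: p-values then measure the spread between these libraries, which may be technical. The cells were mIMCD-3, a mouse line from the inner medullary collecting duct, given 10 nM of a gapmer (an antisense oligonucleotide that directs RNA cleavage) for 48 h, with 3 libraries of a gapmer that targets Hoxb3os, a long noncoding RNA, and 2 of a control gapmer.

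The clock is a transcriptional feedback loop that runs in nearly every cell. CLOCK and BMAL1, the product of Arntl, bind E-boxes as a pair and activate Per and Cry genes, whose proteins return to block the pair. The same pair drives Nr1d1 and Nr1d2, whose products REV-ERBα and REV-ERBβ repress Arntl through elements shared with the ROR receptors. It also drives Dbp. DBP, TEF and HLF are PAR bZIP factors, which bind D-boxes and pass the rhythm on to output genes. In the kidney, rhythmic outputs include sodium channels, transporters and water handling genes.

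Promoter sequence is shown for the members in which a search for 4 motifs found a match: 3 motifs of this loop and the cAMP element, which CREB binds and through which signals from outside the cell reach some clock genes. Windows from 250 bases before to 50 bases after the start came from RefSeq (GRCm38.p6) and matched 9 of the 10 genes. Per2 had no window and was not searched. Per1, Tef and Arntl had 2 start windows each, Clock had 3 and the other matched genes 1. Both strands were searched, with these shares among 32851 windows of all genes. The E-box CACGTG was in 7.15%, and the D-box (TTATGTAA or TTACGTAA) in 1.06%. The REV-ERB/ROR core (TAGGTCA or TGGGTCA) was in 6.45% and the cAMP element TGACGTCA in 1.79%. No motif overlapped another in the members. The lines below read 5′ to 3′ on the gene's own strand, with the motif in capitals.

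Per1 (chr11:69098749-69098848, + strand, E-box at -166 from the start): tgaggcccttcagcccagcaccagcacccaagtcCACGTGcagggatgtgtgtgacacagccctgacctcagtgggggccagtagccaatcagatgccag
Per3 (chr4:151044796-151044895, - strand, a pair of D-boxes at -205 and -158 from the start): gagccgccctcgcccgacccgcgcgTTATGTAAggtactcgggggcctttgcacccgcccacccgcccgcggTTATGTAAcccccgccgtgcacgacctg
Tef (chr15:81802536-81802561, + strand, E-box at -127 from the start): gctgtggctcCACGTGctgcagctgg
Hlf (chr11:90390918-90390977, - strand, cAMP element at -9 from the start): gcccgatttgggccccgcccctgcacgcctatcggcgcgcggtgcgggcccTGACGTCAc
Arntl (chr7:113207530-113207556, + strand, REV-ERB/ROR core at 31 from the start): aaggcagaaagTAGGTCAgggacggag

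Per1 and Tef carried the element that the CLOCK and BMAL1 pair binds, Per3 the one that DBP, TEF and HLF bind, and Arntl the one that REV-ERB proteins bind. Hlf held the cAMP element alone. Tef had an E-box in both of its windows, the other at -138 from its start, whereas the other window of Per1 and that of Arntl held no match. The windows of Dbp, Nr1d1, Nr1d2 and Clock held none of these letters. A match is a description of sequence and not evidence of binding.

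Kidney libraries held 30.7 to 94.4 M reads. Mitochondrial transcripts took 22 to 41.4% of the signal and small structural RNA genes 6.18 to 28.3%. The 2 Pkd2 knockout libraries lay furthest apart of the 4 pairs, at -0.765 and 33.4 on the first principal component. Whole-gene Pkd1 read 31.1 and 22.7 in its controls against 24.1 and 26.0 in its knockouts, with overlapping groups (limma adjusted p = 0.82). Whole-gene Pkd2 read 69.0 and 61.2 in its controls against 50.7 and 53.3, without overlap, but the difference did not pass (limma adjusted p = 0.33). A whole-gene value includes exons outside the floxed part, so it checks the labels weakly. No proximal tubule or thick ascending limb marker was at 0 in any library. Xist and the sum of Y-linked transcripts differed between the libraries of the Pkd1 controls and of the Pkd2 knockouts, so the groups were not balanced for sex in any of the kidney comparisons. Pkd1 control 2 (Xist 416, Y-linked sum 10.4) held both signals. So did the Pkd1 knockouts (Xist 25.3 and 27.7, Y-linked sums 149 and 183). Whether these libraries held RNA of both sexes was not tested.

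**Figure D1:**
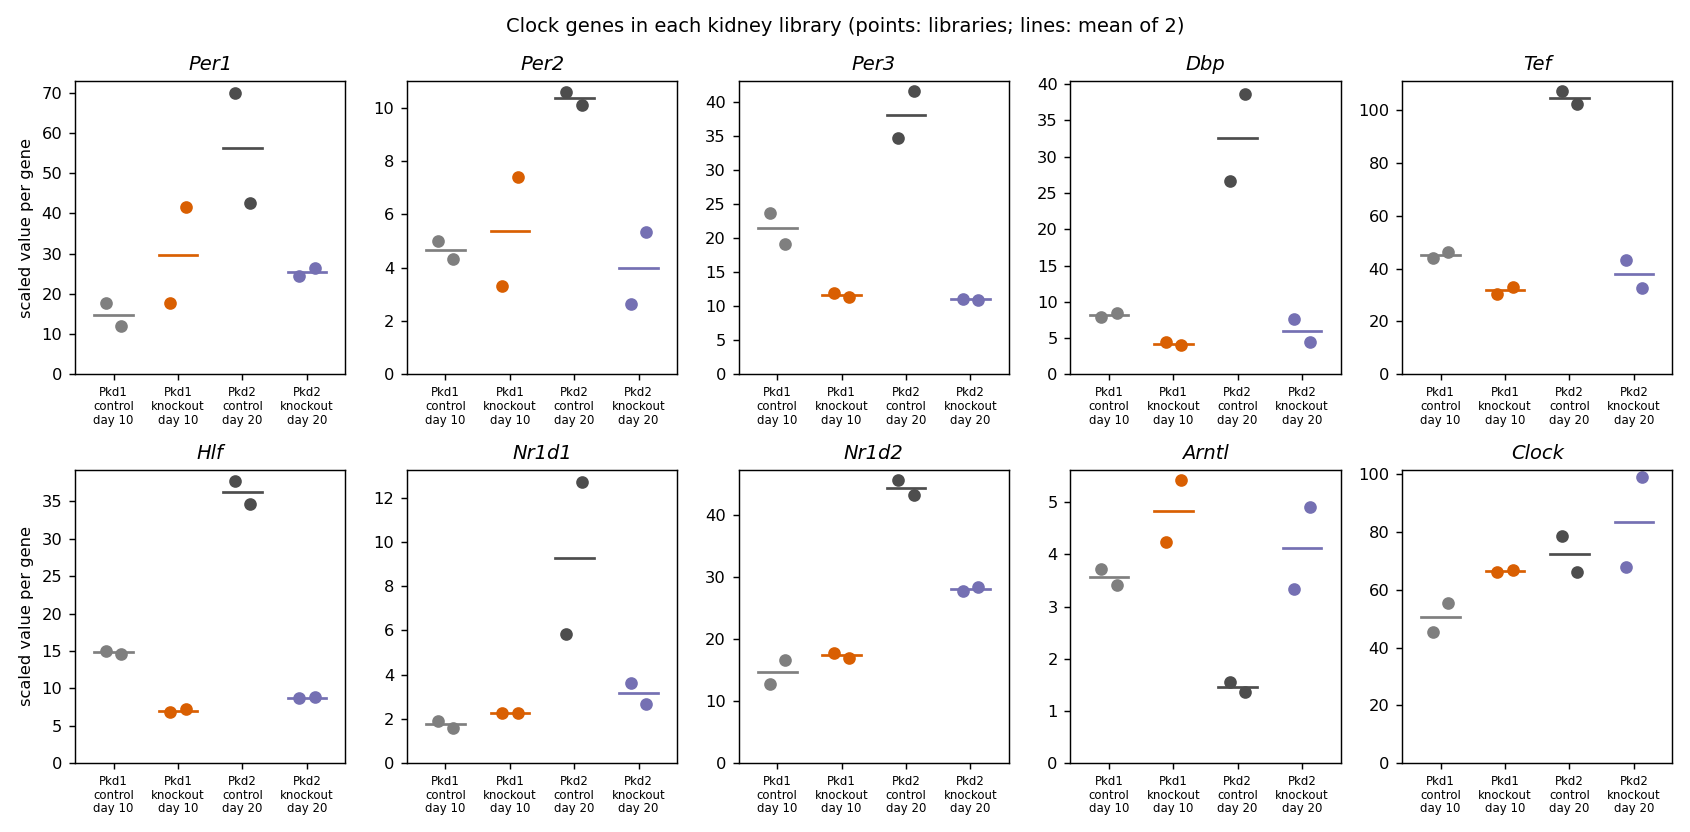
Scaled value per gene (vertical axes, from 0, 1 panel a gene) in the 8 kidney libraries. Points are libraries and lines are means of 2 libraries in each of the 4 groups. Dbp in the Pkd2 controls (26.6 and 38.7) lies above all other libraries, and Arntl there (1.56 and 1.37) lies below all others.

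In the Pkd2 knockout at day 20, 7 of the 10 clock genes fell and 1 rose. The output factors Dbp, Hlf and Tef fell by 2.27, 1.93 and 1.45 on the log2 scale, the repressors Per3 and Per2 fell by 1.70 and 1.24, and the REV-ERB genes Nr1d1 and Nr1d2 fell by 1.23 and 0.64. Arntl, the activator that REV-ERB proteins repress, rose by 1.04. Per1 and Clock did not pass the test. Calls were limma adjusted p-values below 0.05 over all genes tested, on log2(value + 1), a scale that understates changes of low genes. Fold changes of single genes given below are likewise folds of value + 1. Of all genes tested, 8.13% were called lower and 9.54% higher. The median over the 10 members was -1.23, and over all genes tested -0.01. In bulk RNA, fewer cells of a type and less RNA per cell cannot be told apart.

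Among the output factors, Dbp (chromosome 7, 45705088-45710155, mm10) read 26.6 and 38.7 in Pkd2 controls but 7.57 and 4.51 after knockout. The lowest control was thus well above the highest knockout. Its fall was 4.82-fold (SE 0.25 on the log2 scale, limma adjusted p = 0.0011). Hlf (chromosome 11, 90336536-90390895) read 37.7 and 34.7 in controls against 8.66 and 8.86, a 3.81-fold fall (SE 0.15, limma adjusted p = 0.00036). This was the smallest adjusted p among the members. Tef (chromosome 15, 81802421-81826861) read 107 and 102 in controls against 43.2 and 32.5, a 2.74-fold fall (SE 0.18, limma adjusted p = 0.0017). The groups did not overlap for any of these 3 genes.

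Per3 (chromosome 4, 151003652-151044665) behaved like the output factors among the Period repressors. It read 34.8 and 41.6 in Pkd2 controls against 11.1 and 11 in knockouts, a 3.24-fold fall (SE 0.17, limma adjusted p = 0.00087). Per2 (chromosome 1, 91415982-91459324) read 10.6 and 10.1 against 2.63 and 5.34, with a log2 change of -1.24 (SE 0.34, limma adjusted p = 0.037). The Per2 call was lost in edgeR, without the filter, with the libraries of the contrast alone and without most single libraries (adjusted p from 0.0062 to 0.16 over 16 alternatives in limma and the other tools). Both Per2 knockouts were low, and they differed from each other about as much as the nearer one differed from the controls. Per1 (chromosome 11, 69095217-69109960) read 70.0 and 42.6 against 24.5 and 26.5. The Per1 groups did not overlap, but the controls were far apart and the log2 change of -1.07 (SE 0.38, 95% interval -1.94 to -0.21) did not pass (limma adjusted p = 0.086).

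The REV-ERB genes were less uniform. Nr1d1 (chromosome 11, 98767932-98775333) read 5.85 and 12.7 in Pkd2 controls against 3.64 and 2.68, with a log2 change of -1.23 (SE 0.30, limma adjusted p = 0.024). Control 2 was the high one, and it also held the adrenal transcripts: the summed value of 4 adrenal markers was 3.56 in control 1 and 128 in control 2. In some other libraries Cyp11a1, Cyp11b1 or Hsd3b1 of that list was at 0. The part of the adrenal transcripts in the Nr1d1 value was not tested. Without control 2 the Nr1d1 change was -0.73 (limma adjusted p = 0.14, with 0.0007 to 0.14 over the 16 alternatives). The call was also lost without knockout 2, without the filter and with the libraries of the contrast alone. Nr1d2 (chromosome 14, 18204054-18239127) read 45.6 and 43.1 against 27.7 and 28.4. Its libraries were close within each group, and the log2 change was -0.64 (SE 0.17, limma adjusted p = 0.032). This call was lost with quantile scaling (-0.59), with mitochondrial and small structural RNA genes left out (-0.53), with the libraries of the contrast alone, and without either Pkd2 control or without knockout 2. Over its 16 alternatives the adjusted p ran from 0.025 to 0.17 in limma and the other tools.

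Of the activators, Arntl (chromosome 7, 113207465-113314122) read 1.56 and 1.37 in Pkd2 controls against 3.34 and 4.90. It was the only member called higher, by 2.05-fold of value + 1 (SE 0.20 on the log2 scale, limma adjusted p = 0.011). For a gene this low that fold understates the difference of the values, whose means were 1.46 and 4.12. The call was lost without either Pkd2 control or without knockout 2 (adjusted p from 0.00041 to 0.089 over 16 alternatives in limma and the other tools). Its depth was low, at 60 to 454 reads a library over the 8 libraries. Clock (chromosome 5, 76209868-76304792) read 78.5 and 66.2 against 67.9 and 98.9. Here the groups overlapped, and the log2 change was 0.18 (95% interval -0.31 to 0.67, limma adjusted p = 0.60).

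Counting groups without overlap, 8 members were lower in both Pkd2 knockouts and 1 was higher, beside 30.9% and 31.9% of all genes tested. Per3, Dbp, Tef and Hlf passed under every alternative that was run for this comparison. Fewer members passed without Pkd2 control 1, Pkd2 control 2 or Pkd2 knockout 2, and each of these fits leaves 1 library in a group. Fewer genes passed over the whole table in those fits as well, so the loss was not particular to the members. Over libraries left out, the log2 change of Dbp ran from -2.59 to -1.95 and that of Per2 from -1.64 to -0.84. With mitochondrial and small structural RNA genes left out, calls over the whole table were 1790 higher and 1012 lower in place of 1397 and 1190. The 7 proximal tubule markers summed to 2920 and 3660 in the controls and to 1660 and 1190 in the knockouts, with 6 of 7 called lower. Thick ascending limb markers fell in 3 of 5, from 2880 and 2630 to 902 and 798. Macrophage markers rose in 7 of 7, from 37.5 and 39.2 to 155 and 183. Muscle markers rose in 3 of 4, from 28 and 42.5 to 166 and 131. Fat markers fell in 1 of 5, from 104 and 147 to 72.4 and 25.4, and Ucp1 of that list was at 0 in some libraries. The mitochondrial share was 41.4 and 41.3% in the controls and 34.7 and 30.1% in the knockouts. Xist read 346 and 350 in the controls and 1.74 and 449 in the knockouts. The part of these shifts, sex included, in the clock gene changes was not tested.

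**Figure D2:**
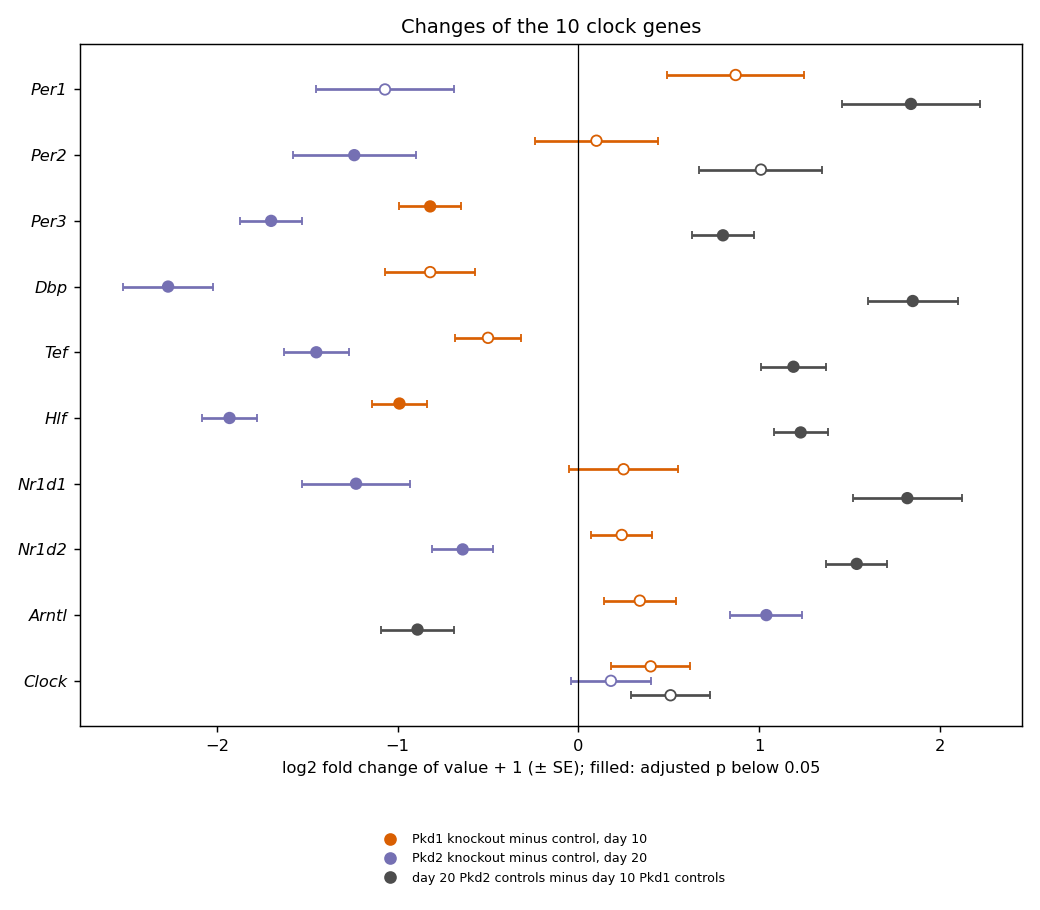
Log2 fold change of value + 1 (horizontal axis) for each clock gene, with bars for ± SE, in the Pkd1 knockout, the Pkd2 knockout and the day 20 against day 10 controls. Filled points had a limma adjusted p below 0.05. Dbp fell by 2.27 in the Pkd2 knockout, and the controls differed by 1.85.

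In the Pkd1 knockout at day 10, 2 of the 10 clock genes fell and none rose. Hlf read 15 and 14.6 in controls against 6.79 and 7.20, a 1.98-fold fall (log2 SE 0.15, limma adjusted p = 0.0061). Per3 read 23.8 and 19.2 against 11.9 and 11.4, a 1.77-fold fall (SE 0.17, limma adjusted p = 0.021). Over all genes tested, 5.48% were called lower and 5.11% higher. The member median was 0.17, and that of all genes tested was 0.00.

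The other PAR bZIP genes were lower in both Pkd1 knockouts without passing the test. Dbp read 7.87 and 8.46 against 4.41 and 4 (log2 change -0.82, SE 0.25, limma adjusted p = 0.073). Tef read 44.1 and 46.2 against 30.3 and 33.2 (log2 change -0.50, SE 0.18, limma adjusted p = 0.11). Neither pair of groups overlapped. Tef passed only in the fits without either Pkd2 knockout. Dbp passed in DESeq2, with the libraries of the contrast alone, without either Pkd2 knockout and with mitochondrial and small structural RNA genes left out (adjusted p from 0.015 to 0.23 over 16 alternatives in limma and the other tools).

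The other members had intervals that reached 0 or positive values. Per1 read 17.7 and 11.9 in Pkd1 controls against 17.8 and 41.6, and the second knockout alone was well above the rest (log2 change 0.87, SE 0.38, limma adjusted p = 0.18). In DESeq2 alone Per1 passed, as higher (DESeq2 adjusted p = 0.041). Per2 read 4.99 and 4.31 against 3.33 and 7.41. Its knockouts lay on either side of the controls, with a log2 change of 0.10 (95% interval -0.67 to 0.87), and of -0.38 without Pkd1 knockout 2. Nr1d1 read 1.9 and 1.6 against 2.27 and 2.26, and Nr1d2 read 12.8 and 16.6 against 17.8 and 16.9. Their log2 changes were 0.25 (95% interval -0.42 to 0.93) and 0.24 (95% interval -0.15 to 0.62). Arntl read 3.72 and 3.41 against 4.24 and 5.42 (log2 change 0.34, limma adjusted p = 0.31). Clock read 45.5 and 55.5 against 66.3 and 66.7 (log2 change 0.40, limma adjusted p = 0.27).

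Without overlap, 4 members were lower and 5 higher in the Pkd1 knockouts, beside 29.2% and 29.1% of all genes tested. The Hlf call was lost without Pkd1 control 1, with a log2 change between -1.02 and -0.95 over libraries left out. The Per3 call was lost without any 1 of the 4 Pkd1 libraries (adjusted p from 0.0024 to 0.14 over 16 alternatives in limma and the other tools). Leaving out any 1 of the 4 Pkd1 libraries leaves 1 library in its group, and fewer genes passed over the whole table in those fits as well. Leaving out either Pkd2 knockout, which changes only the shared spread, gave more calls among the members and over the whole table. The 7 proximal tubule markers summed to 1840 and 2050 in the controls and 619 and 815 in the knockouts, with 6 of 7 called lower. Macrophage markers rose in 7 of 7, from 34.2 and 29.7 to 89.7 and 84.1. Muscle markers rose in 4 of 4, from 132 and 112 to 600 and 615, a 4.98-fold difference of means. Thick ascending limb markers fell in 2 of 5, from 1090 and 906 to 348 and 525. The mitochondrial share was 27.4 and 38.7% in the controls and 22 and 22.5% in the knockouts. Xist read 0.221 and 416 in the controls against 25.3 and 27.7, and Y-linked transcripts summed to 155 and 10.4 against 149 and 183. The part of these shifts in the result was not tested.

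The controls of the 2 models differed in most of the 10 clock genes. Between day 10 Pkd1 controls and day 20 Pkd2 controls, 7 of the 10 clock genes were higher at day 20 and 1 was lower. Dbp was 3.62-fold higher (limma adjusted p = 0.0031), Hlf 2.35-fold (adjusted p = 0.0020) and Tef 2.29-fold (adjusted p = 0.0047). Nr1d1 was 3.53-fold higher, Nr1d2 2.91-fold, Per1 3.58-fold and Per3 1.74-fold. Arntl was 1.85-fold lower (limma adjusted p = 0.023). All of these are folds of value + 1, which understate the differences of low genes. The mean value of Nr1d1 was 1.75 at day 10 and 9.27 at day 20, and that of Arntl was 3.57 and 1.46. Per2 (log2 difference 1.01, limma adjusted p = 0.091) and Clock (0.51, limma adjusted p = 0.16) did not pass. Of all genes tested, 5.04% were called higher and 7.26% lower.

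Dbp, Tef, Hlf and Nr1d2 passed this comparison under every alternative run. Per3 and Arntl lost their call without any 1 of the 4 controls, Per1 without 3 of them and Nr1d1 without either Pkd1 control. Fewer members passed without any 1 of the 4 controls, which leaves 1 library in its group. Fewer genes passed over the whole table in those fits as well. With mitochondrial and small structural RNA genes left out, the median of all genes moved to -0.126 on the log2 scale, and the calls were 598 higher and 1500 lower in place of 738 and 1063. This comparison shares its control libraries with both knockout comparisons, so its values and theirs are not independent. Marker sums differed as well, here given for day 10 and then day 20. Thick ascending limb markers summed to 1090 and 906 against 2880 and 2630 (3 of 5 higher), and proximal tubule markers to 1840 and 2050 against 2920 and 3660 (1 of 7 higher). Muscle markers summed to 132 and 112 against 28 and 42.5 (3 of 4 lower). Adrenal markers summed to 0.328 and 0.415 against 3.56 and 128, with 0 called of the 2 tested. The mitochondrial share was 27.4 and 38.7% against 41.4 and 41.3%. Xist read 0.221 and 416 against 346 and 350. The part of these shifts in the differences between the controls was not tested.

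Ordered by level, the Pkd2 controls were highest for Per1, Per2, Per3, Dbp, Tef, Hlf, Nr1d1 and Nr1d2 and lowest for Arntl. For Dbp the order went on with Pkd1 controls (8.16 ± 0.42, SD, n = 2), Pkd2 knockouts (6.04 ± 2.16) and Pkd1 knockouts (4.21 ± 0.29). The Dbp difference between Pkd1 controls and Pkd2 knockouts was within the spread of the latter. For Hlf the order was the same, with Pkd2 knockouts at 8.76 ± 0.14 and Pkd1 knockouts at 6.99 ± 0.29. For Per3 the knockout groups of both models were neighbours, at 11 ± 0.08 and 11.6 ± 0.33. For Tef the knockouts of the 2 models (37.9 ± 7.54 and 31.7 ± 2.07) did not differ beyond their spread. For Nr1d2 the Pkd2 knockouts (28.1 ± 0.51) stayed above the Pkd1 knockouts (17.4 ± 0.63) and the Pkd1 controls (14.7 ± 2.69), and the last 2 groups did not differ beyond their spread.

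Per1, Per2 and Nr1d1 had other orders below the Pkd2 controls. Per1 was at 29.7 ± 16.8 (SD, n = 2) in the Pkd1 knockouts, 25.5 ± 1.41 in the Pkd2 knockouts and 14.8 ± 4.12 in the Pkd1 controls, and the wide Pkd1 knockout spread covered its neighbours. Per2 was between 3.99 ± 1.91 and 5.37 ± 2.88 in the 3 lower groups, which did not differ beyond their spread. Nr1d1 was at 3.16 ± 0.68 in the Pkd2 knockouts, 2.27 ± 0.01 in the Pkd1 knockouts and 1.75 ± 0.22 in the Pkd1 controls. Arntl was highest in the Pkd1 knockouts (4.83 ± 0.84) and Pkd2 knockouts (4.12 ± 1.11), which did not differ beyond their spread, then in the Pkd1 controls (3.57 ± 0.22). Clock ran from 83.4 ± 21.9 in the Pkd2 knockouts to 50.5 ± 7.11 in the Pkd1 controls.

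Levels between genes were compared per kilobase of exon, from exon lengths in GENCODE vM21. In the Pkd2 controls Tef was at 13.6 and 13 per kb, Per1 at 12.4 and 7.57, Dbp at 8.89 and 12.9 and Nr1d2 at 8.43 and 7.97. Arntl was the lowest, at 0.207 and 0.182 per kb, far under its partner Clock at 5.72 and 4.82. In the Pkd2 knockouts the most abundant members per kb were Clock (4.95 and 7.20), Nr1d2 (5.12 and 5.25), Tef (5.49 and 4.13) and Per1 (4.35 and 4.71).

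The ratio of Dbp to Arntl sets an output against an activator within a library, so a scaling factor cancels. At day 20 it was 17.1 and 28.3 in controls against 2.27 and 0.92 in knockouts. At day 10 the controls had 2.11 and 2.48 and the knockouts 1.04 and 0.738. The day 20 controls stood apart from all 6 other libraries, and the knockouts were below the controls in both models. The ratio of Nr1d1 to Arntl was 3.75 and 9.27 in Pkd2 controls against 0.418 to 1.09 in the other libraries. Per3 to Arntl was 22.3 and 30.4 in day 20 controls, 5.62 and 6.4 in day 10 controls and 2.11 to 3.33 in the 4 knockouts.

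**Figure D3:**
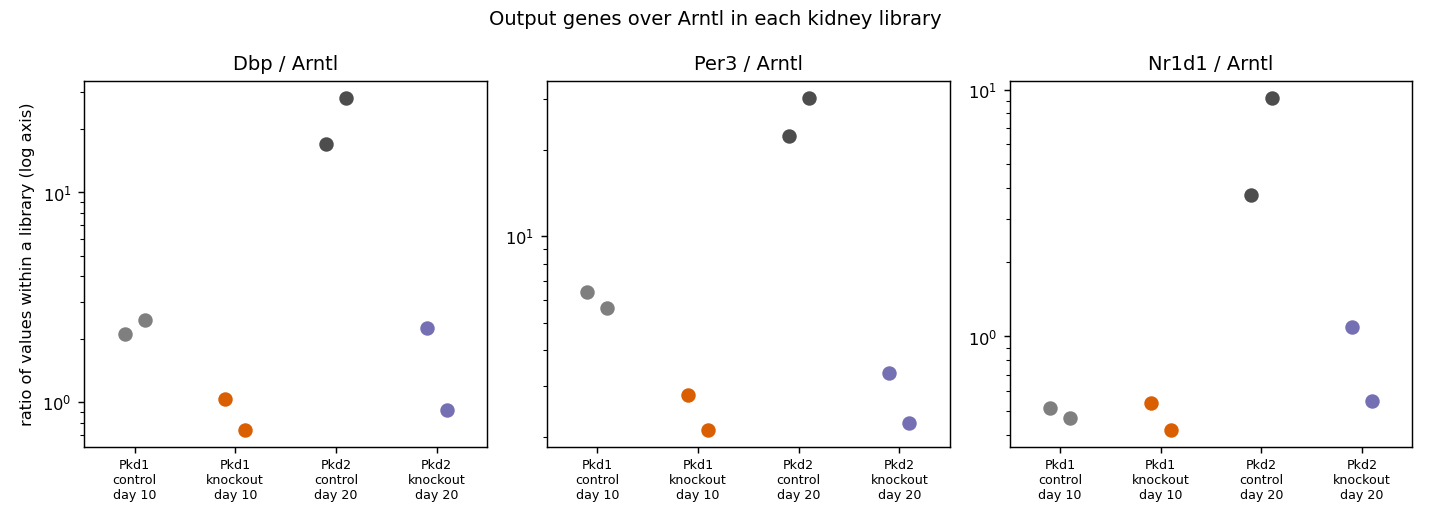
Ratios of Dbp, Per3 and Nr1d1 to Arntl within each kidney library (vertical log axes, no unit), 1 point a library. The Pkd2 controls are highest in each panel, at 17.1 and 28.3 for Dbp.

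Whether the knockout effects differed between the models was tested as an interaction (the Pkd1 effect minus the Pkd2 effect). In limma, 0 of 10 members passed adjustment. Among all genes tested, 0% were called higher and 0.00683% lower after adjustment. An unadjusted p below 0.05 was found for 9 members, but the share of all genes at that level is not given here. The 9 are therefore no result on the members. In edgeR 0 members passed, and in DESeq2 3 passed (Per1, Dbp and Nr1d1). Of 14637 genes tested, DESeq2 called 70 higher and 114 lower. The interaction for Dbp was 1.45 (SE 0.35, 95% interval 0.65 to 2.26, limma adjusted p = 0.23), for Per1 1.94 (SE 0.54, limma adjusted p = 0.30) and for Nr1d1 1.48 (SE 0.42, limma adjusted p = 0.32). For Arntl it was -0.69 (95% interval -1.35 to -0.04, limma adjusted p = 0.55). A difference between the models was therefore not established for any member in limma.

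Libraries of one group differed mostly in Per1, Per2, Nr1d1 and Dbp. From replicate 1 to replicate 2 of the Pkd1 knockout, Per1 differed by 1.18 and Per2 by 0.96 on the log2(value + 1) scale, whereas Per3, Dbp, Tef, Hlf, Nr1d1 and Nr1d2 differed by 0.13 or less. In the same pair, the immediate early gene Fos read 27.6 and 13.1 and the glucocorticoid target Fkbp5 27.6 and 37.5. The 5 markers of principal cells, a cell type of the collecting duct, summed to 69.5 and 212 in that pair. Most of this lay in Aqp2 (4.41 and 56.2) and Aqp3 (20 and 98). Avpr2 (12.6 and 15.4), Scnn1g (20.7 and 28.2) and Hsd11b2 (11.8 and 13.7) differed much less. The part of these differences in Per1 and Per2 was not tested. In the Pkd2 controls Nr1d1 differed by 1.00, Per1 by -0.70 and Dbp by 0.52. In the Pkd2 knockouts Per2 differed by 0.80 and Dbp by -0.64. Hlf differed by 0.12 or less in every group, which made it the steadiest member.

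Over the 8 libraries, Dbp correlated with Tef at r = 0.99, with Hlf at 0.96 and with Per3 at 0.93, and with Arntl at -0.99. Clock correlated with Dbp at -0.02. These are descriptions over libraries that share 4 groups, and a correlation here follows the group differences already given.

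The authors' deposited table gives its own tests for these kidneys, over 28183 genes. In it, at a false discovery rate below 0.05, only Hlf passed in the Pkd1 comparison (FDR 0.044, lower in knockout). In the authors' deposited table for Pkd2, 7 members were lower and 1 higher in knockout, with Per1 (FDR 0.022) called and Nr1d2 (FDR 0.32) not. The shares of all genes called in the authors' deposited table were 3.59% higher and 4.35% lower for Pkd1, and 5.68% higher and 4.58% lower for Pkd2. Arntl was among the called genes there (FDR 0.0029).

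Some members share exon sequence with a gene on the other strand, and no source names the strand setting of the counts. Of the exon bases of Dbp, 18.0% lie under exons of Sphk2, and of those of Nr1d1, 8.55% lie under exons of Thra. Tef shares 2.45% with Gm17597 and Arntl 0.439% with Gm45355. Sphk2 read 18.9 and 21.5 in the Pkd2 controls against 14.7 and 10.8 in the knockouts, a log2 change of -0.64 (limma adjusted p = 0.070). Thra read 25.6 and 33.3 against 25.3 and 16.8 (log2 change -0.48, limma adjusted p = 0.21). In the Pkd1 kidneys Thra read 62.3 and 44.4 against 27.3 and 29.5 (log2 change -0.87, limma adjusted p = 0.058), beside 0.25 for Nr1d1, and Sphk2 had a log2 change of -0.23. How far reads of these partners entered the counts was not tested.

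A list of 29 other clock pathway genes was read in the same fits. In the Pkd2 knockout 3 fell, 1 rose and 25 did not pass, with a median of 0.10. This is near the background of all genes tested, of which 8.13% fell and 9.54% rose, so the counts are no result on the list. Usp2, a deubiquitinase with a rhythmic transcript, read 56.1 and 48.0 in controls against 13.2 and 15.3, and fell by 1.80 on the log2 scale (SE 0.23, limma adjusted p = 0.0020). Cry2, a repressor that works with the PER proteins, read 7.82 and 7.17 against 3.11 and 3.88, and fell by 0.92 (limma adjusted p = 0.0091). Ciart, a repressor of the CLOCK and BMAL1 pair, read 2.6 and 2.4 against 0.477 and 1.2, and fell by 0.96 (limma adjusted p = 0.044). Npas2, a CLOCK paralogue that also pairs with BMAL1, rose from 0.286 and 0.11 to a knockout mean of 1.23 ± 0.155 (SD, n = 2), by 0.90 (limma adjusted p = 0.026). Its depth was very low, at 11 and 5 reads in the controls and 40 and 58 in the knockouts. Usp2 and Ciart were also higher in day 20 than in day 10 controls, by 1.80 and 1.05. Cry1 (-0.29), Cry2 (0.05) and Npas2 (-0.77) did not pass between the controls (limma adjusted p = 0.44, 0.88 and 0.056). There 4 of the 29 were higher and 1 lower, beside 5.04% and 7.26% of all genes tested.

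Cry1, Nfil3, Rora, Bhlhe40 and Bhlhe41 did not pass in the Pkd2 knockout. Cry1 read 2.96 and 2.25 against 1.77 and 3.01, with overlapping groups. Nfil3, a repressor that competes with DBP at D-boxes, had a log2 change of 0.64 (limma adjusted p = 0.089). Rora had 0.24, Bhlhe40 0.49 and Bhlhe41 0.53 (both BHLHE factors repress through E-boxes), at limma adjusted p-values of 0.40, 0.24 and 0.14. The number of other clock pathway genes called was smaller without either Pkd2 control and larger without Pkd2 knockout 1. Each of these fits leaves 1 library in a group. Over the whole table the number called moved the same way, so these shifts are no result on the list.

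In the Pkd1 knockout 0 of the 29 passed in limma, and 1 was called in each of edgeR and DESeq2. An unadjusted p below 0.05 was found for 10 in limma, but the share of all genes at that level is not given here. The 10 are therefore no result on the list. The median was 0.19. Bhlhe41 had a log2 change of 0.74 (limma adjusted p = 0.071), Rora 0.57 (0.078), Nfil3 0.62 (0.12) and Bhlhe40 0.68 (0.14). Cry1 (0.21), Cry2 (-0.03), Npas2 (0.25), Ciart (0.21) and Usp2 (-0.21) had smaller values. In the authors' deposited table Bhlhe41 (FDR 0.00071) and Rorb (FDR 0.0011) were called higher in the Pkd1 knockouts, beside 3.59% of its genes. Both are low, and value + 1 understates their changes. Bhlhe41 read 0.394 and 0.394 in controls against 1.82 and 0.931. Rorb, named outside the rule, read 0.41 and 0.678 against 1.42 and 2.05. Calls appeared among the 29 without Pkd1 knockout 2 or without either Pkd2 knockout, and each of these fits leaves 1 library in a group. Over the whole table fewer genes passed without Pkd1 knockout 2 and more without either Pkd2 knockout.

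**Figure D4:**
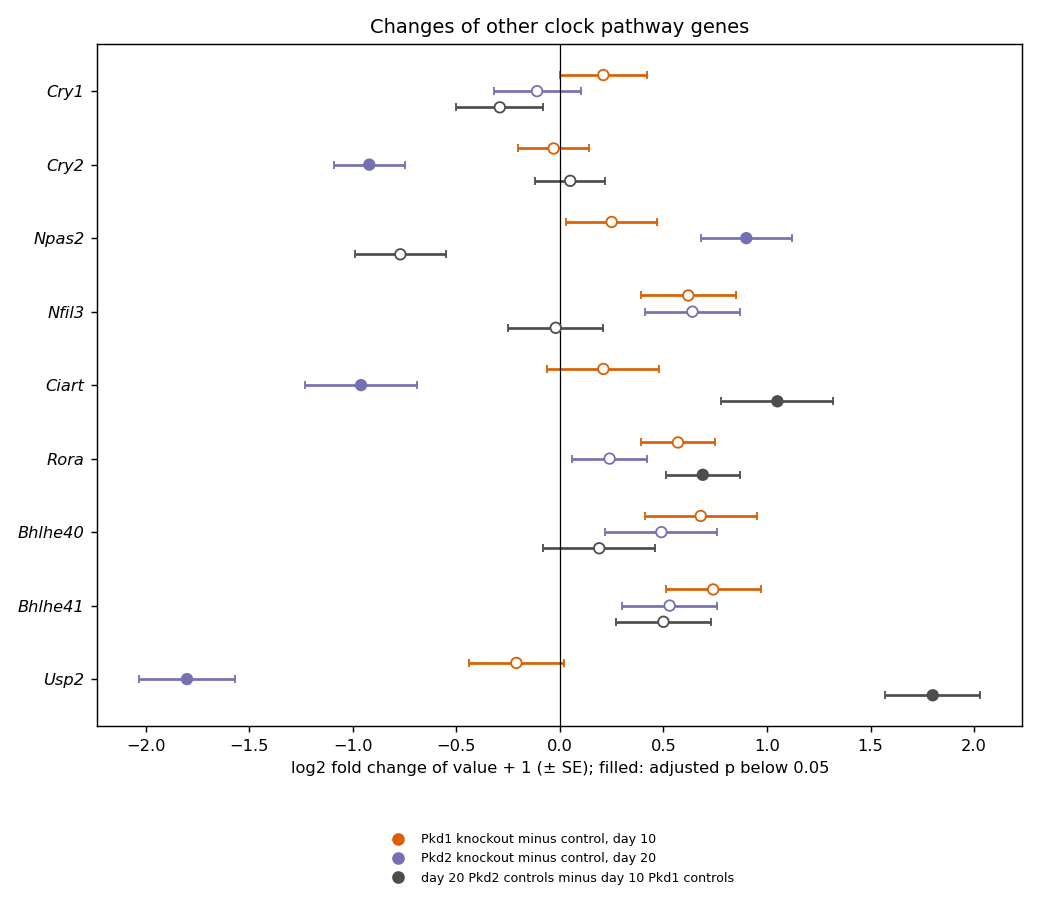
Log2 fold change of value + 1 (horizontal axis, bars ± SE) for other clock pathway genes in the same 3 comparisons. Filled points had a limma adjusted p below 0.05. Usp2 fell by 1.80 in the Pkd2 knockout and did not pass in the Pkd1 knockout (-0.21).

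Of 12 kidney genes described as clock outputs, 3 rose and 2 fell in the Pkd1 knockout, and 3 rose and 3 fell in the Pkd2 knockout. Of all genes tested, 5.11% rose and 5.48% fell in the Pkd1 knockout, and 9.54% rose and 8.13% fell in the Pkd2 knockout. Cldn4, a tight junction claudin, read 9.30 and 8.11 in Pkd1 controls against 42.6 and 34.2, and 4.76 and 4.15 in Pkd2 controls against 24.0 and 42.3. It rose by 2.02 and 2.60 on the log2 scale (limma adjusted p = 0.0032 and 0.00076). Scnn1a, the α subunit of the epithelial sodium channel, read 44.6 and 34 against 141 and 153 in the Pkd1 kidneys and rose by 1.89 (limma adjusted p = 0.0014). In the Pkd2 kidneys Scnn1a read 72.7 and 78.7 against 81.0 and 91.9 and was not called. Slc9a3, the proximal sodium-proton exchanger, read 20.6 and 18.7 against 4.34 and 3.33 in the Pkd2 kidneys and fell by 2.10 (limma adjusted p = 0.0013). It fell by 1.32 in the Pkd1 kidneys (limma adjusted p = 0.011). Avpr2, the vasopressin receptor, rose by 1.84 and 0.83 (limma adjusted p = 0.0020 and 0.025). The other called genes, Slc22a8, Edn1 and Wnk1, are named outside the rule, after their values were seen. Fewer of the 12 passed in the Pkd2 knockout without either Pkd2 control or without Pkd2 knockout 2. Each of these fits leaves 1 library in a group, and fewer genes passed over the whole table as well.

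Per1 and Per2 also respond to immediate early and glucocorticoid signals, and both lists were read for this reason. Of 15 immediate early genes tested, 9 rose in the Pkd1 knockout and 8 in the Pkd2 knockout, and none fell, beside 5.11% and 9.54% of all genes tested that rose. Fos read 0.73 and 0.328 in Pkd1 controls against 27.6 and 13.1, and 0.572 and 1.68 in Pkd2 controls against 6.67 and 9.99. It rose by 3.73 and 2.16 (limma adjusted p = 0.0016 and 0.0066). Egr2 rose by 3.07 and 3.06, Egr1 by 2.48 and 2.09 and Btg2 by 1.15 and 1.11. Fewer of the 15 passed in the Pkd1 knockout without either Pkd1 control or without Pkd1 knockout 1. The same held in the Pkd2 knockout without Pkd2 control 1. Each of these fits leaves 1 library in a group, and fewer genes passed over the whole table as well.

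Of 9 glucocorticoid response genes tested, 2 rose in the Pkd1 knockout, and 1 rose and 2 fell in the Pkd2 knockout. The shares of all genes tested were 5.11% higher for Pkd1, and 9.54% higher and 8.13% lower for Pkd2, so the single rise in Pkd2 is near the background. Fkbp5, a cochaperone of the glucocorticoid receptor, read 9.69 and 12.8 in Pkd1 controls against 27.6 and 37.5 and rose by 1.45 (limma adjusted p = 0.0050). In the Pkd2 kidneys it read 20.4 and 17.2 against 19.4 and 21.5, with overlapping groups. Errfi1 rose by 0.98 in the Pkd1 knockout (limma adjusted p = 0.022). In the Pkd2 knockout Cdkn1a, a cell cycle inhibitor, rose by 1.2 (limma adjusted p = 0.0057). Klf15, a metabolic transcription factor under clock control, read 27.3 and 16.7 against 7.26 and 5.25 and fell by 1.64 (limma adjusted p = 0.0074). Klf9, named after its value was seen, fell by 0.79 (limma adjusted p = 0.022). Fewer of the 9 passed in the Pkd1 knockout without either Pkd1 control or without Pkd1 knockout 1, and in the Pkd2 knockout without Pkd2 control 1. Fewer genes passed over the whole table in those fits as well. More of the 9 passed in the Pkd2 knockout without either Pkd1 knockout or without Pkd2 knockout 1. Over the whole table more genes passed without Pkd2 knockout 1, and fewer without either Pkd1 knockout. Each of these fits leaves 1 library in a group.

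Genes whose levels followed those of Dbp most closely were sought among 2006 genes, by Pearson's r of log2(value + 1) over the 8 libraries. They were Fads6 (0.985), Ndufs1 (0.985), Hsd3b3 (0.980), Mdh1 (0.978), Sdhb (0.977) and Shmt1 (0.976). Ndufs1 and Sdhb are respiratory chain subunits and Mdh1 is a malate dehydrogenase. Fads6 read 12.5 and 13.2 in Pkd2 controls against 3.20 and 1.66 in knockouts. Scn8a (-0.989), Thy1 (-0.989), Tmtc2 (-0.987) and Tpm4 (-0.985) ran most strongly opposite to Dbp. For Arntl the closest were Susd1 (0.986), Lxn (0.978), Tmtc2 (0.973), Scn8a (0.973), Thy1 (0.973) and Cd276 (0.971), and the most opposite were Uqcrfs1 (-0.989), Hadhb (-0.983), Etfa (-0.983) and Fdx1 (-0.983). Uqcrfs1, Hadhb, Etfa and Fdx1 encode mitochondrial proteins. The libraries share 4 groups, so these coefficients describe group patterns.

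In mIMCD-3 cells, Per1 was higher and Per3, Tef and Nr1d2 were lower after the Hoxb3os gapmer, each by less than 1.2-fold. The cell table holds only genes that passed the authors' test, so being called here repeats that selection: 44.4% of its genes were called higher and 55.6% lower in limma. The row of Hoxb3os itself is not among those analysed here, so the knockdown was not checked. The other 6 members have no value in this table.

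Nr1d2 read 3872 and 4172 with the control gapmer and 3454, 3471 and 3332 with the Hoxb3os gapmer. The groups did not overlap, and the log2 change was -0.23 (SE 0.05, limma adjusted p = 6e-05). Tef read 3522 and 3814 against 3140, 3250 and 3269 (log2 change -0.19, SE 0.05, limma adjusted p = 0.00075). Per3 read 954 and 1089 against 817, 892 and 895 (log2 change -0.23, SE 0.07, limma adjusted p = 0.0028), and without control 2 the change was -0.14 (limma adjusted p = 0.10, with 0.00095 to 0.10 over 8 alternatives). Per1 read 1465 and 1429 against 1561, 1769 and 1735 and was higher by 0.22 (SE 0.06, limma adjusted p = 0.0011). The authors' deposited table gives -0.22 for Nr1d2, -0.18 for Tef, -0.20 for Per3 and 0.20 for Per1.

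Of the 29 other clock pathway genes, 3 were in the cell table, and all 3 were lower. Btrc, which marks PER proteins for degradation, had a log2 change of -0.48 (limma adjusted p = 2e-09), Bhlhe40 -0.17 and Nampt -0.12.

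**Figure D5:**
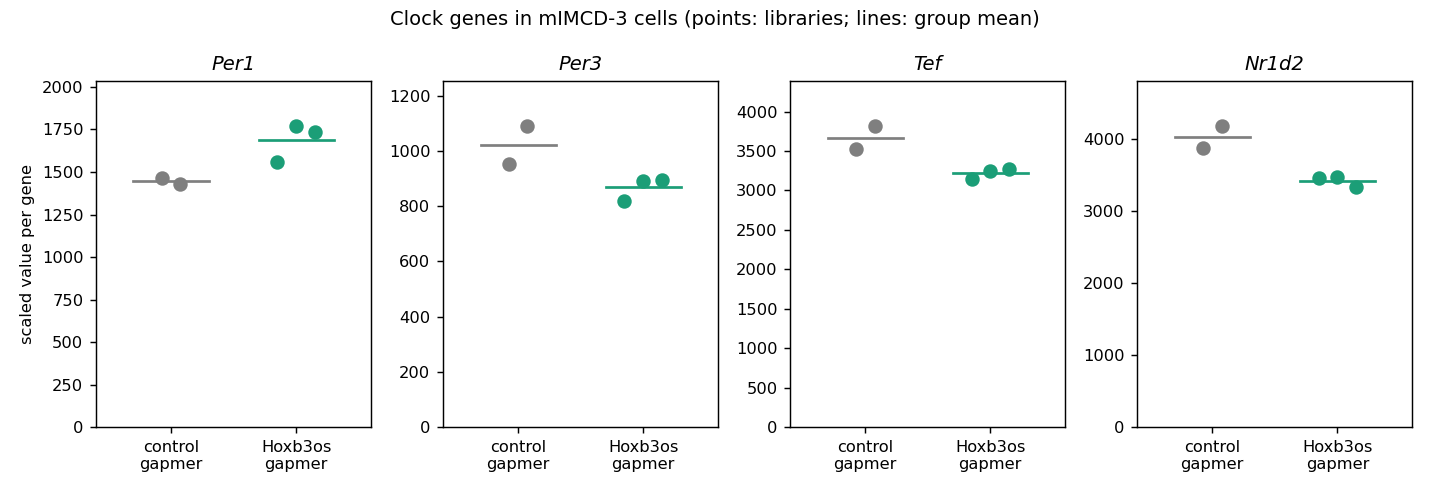
Scaled value per gene (vertical axes, from 0) for the 4 clock genes in the table of mIMCD-3 cells, in 2 control gapmer and 3 Hoxb3os gapmer libraries. Points are libraries and lines are group means. Nr1d2 lies at 3872 and 4172 in controls and between 3332 and 3471 after the Hoxb3os gapmer.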

How the data were processed

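RNA of 8 mouse kidney libraries and 5 mIMCD-3 cell libraries was analysed. The kidney signal values were deposited by the authors as reads per gene scaled to a common library size; the submitters' processing notes name RSEM 1.2.22, STAR 2.4.2a, edgeR, Cufflinks 2.2.1 and mm10. Most values were whole multiples of what 1 read is worth (93.4 to 96.1% within 0.02 of a read), which gave reads per library, less certainly for Pkd1 control 1. The cell signal values were deposited by the authors after scaling by library, and the notes name Trimmomatic 0.32, STAR 2.4.2a, SAMtools 1.0 and DESeq2 1.12.3. The authors' log2 fold changes and p-values (adjusted), as deposited, are quoted only where named. Neither annotation nor strand setting is given in any source used here. The authors' likelihood-ratio score column, deposited beside these, was not used.

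Values were tested with limma 3.58.1 (R 4.3.3, trend) on log2(value + 1), keeping genes whose value reached 1 in 2 or more kidney libraries, in 1 fit of 4 groups (4 residual degrees of freedom), with Benjamini-Hochberg adjustment over 14637 genes and calls below 0.05. Cells were fitted alone over 2016 genes. edgeR 4.0.16 and DESeq2 1.42.0 on the kidney reads were alternatives. The scripts were tested on simulated data.

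Named genes were the 10 members, the called and 8 preset other clock genes, up to 4 called genes with the smallest p of each other list, and the 6 genes most and 4 least like Dbp and Arntl (mean of at least 5, SD of at least 0.5). Members and lists were chosen with earlier results of these data known. Another gene of the list of other clock genes is not reported here.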

Additional observations from a re-analysis of the deposited data

How the results depend on the processing

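Alternatives were quantile scaling, leaving out mitochondrial and small structural RNA genes, a pseudocount of 0.1, no filter, edgeR or DESeq2 on recovered reads, the libraries of a contrast alone, a replicate block and leaving out each library. For cells edgeR and DESeq2 were not run, since whole reads were not recovered there, and for the interaction the contrast alone could not be run. DESeq2 called 4 clock genes in the Pkd1 knockout and 3 in the interaction. It called 1 and 7 of the 29 other clock genes in the Pkd1 and Pkd2 knockouts. It also called 8 kidney outputs in the Pkd1 knockout and 5 glucocorticoid genes in the Pkd2 knockout. Of all 14637 genes tested, DESeq2 called 1016 higher and 1187 lower in the Pkd1 knockout. The numbers were 1645 and 1391 in the Pkd2 knockout, and 70 and 114 in the interaction. With the libraries of the contrast alone, 5 clock genes passed in the Pkd2 knockout, beside 860 higher and 519 lower of 14144 genes tested. In the Pkd1 knockout 2 other clock genes then passed, beside 764 higher and 929 lower of 14084. In the Pkd1 knockout a pseudocount of 0.1 and edgeR each gave 1 other clock gene. Without a filter, 2 other clock genes passed in the Pkd2 knockout, and 5 immediate early and 1 glucocorticoid gene in the Pkd1 knockout. Of 26812 genes then tested, 1051 were called higher and 761 lower in the Pkd2 knockout, and 395 and 395 in the Pkd1 knockout. Leaving out 1 library gave 0 to 4 clock genes in the Pkd1 knockout, 4 to 9 in the Pkd2 knockout, 4 to 9 between controls, 0 in the interaction and 3 to 4 in cells. It gave 0 to 3 and 1 to 9 other clock genes, 4 to 7 and 3 to 6 kidney outputs, 3 to 11 and 4 to 8 immediate early genes, and 0 to 3 and 1 to 5 glucocorticoid genes, in the Pkd1 and Pkd2 knockouts. Signs turned for Per2 in the Pkd1 knockout (-0.38 to 0.58 over libraries left out, lowest without knockout 2), for Clock in the Pkd2 knockout (-0.09 to 0.45, lowest without knockout 2) and for Clock in the interaction (-0.05 to 0.48, lowest without Pkd2 knockout 1). The cause was not tested. Equal replicate numbers did not pair the samples: deviations of same-numbered libraries correlated at -0.38 (Pkd1 control and knockout), -0.05 (Pkd2) and -0.11 (cells), and over the 6 pairs of kidney groups from -0.38 to 0.34, the highest between the Pkd1 and Pkd2 knockouts. With the replicate block, 2 clock genes passed in the Pkd1 knockout, 7 in the Pkd2 knockout (Nr1d2 had an adjusted p of 0.054 in limma), 8 between controls, 0 in the interaction and 4 in cells. Among the members, depth limited Arntl (60 to 454 reads), Nr1d1 (73 to 575) and Per2 (94 to 609) most.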
